A study of Mus musculus with 14 samples.

Results

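The miR-181 family of the mouse is described here through its members mmu-miR-181a, mmu-miR-181b, mmu-miR-181c and mmu-miR-181d in corpus callosum, the large white matter tract between the hemispheres, from mice fed cuprizone (CPZ). The 4 members were found by their names on the array, among 566 mouse miRNAs that it measures. mmu-miR-181b was chosen by its values, since it is a miRNA singled out from these same arrays for its change under CPZ, so its values are given as a description without a test. The other 3 entered through their names and their shared seed, and carry tests across all miRNAs.

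The RNA of single male mice was hybridized to 14 single-colour Agilent miRNA arrays, with 1 mouse per array. Control mice (4 arrays) stayed on normal diet, 4wd mice (4 arrays) had powdered chow with 0.2 to 0.4% CPZ for 4 weeks, 2dr mice (4 arrays) had the same 4 weeks and then regular diet for 2 days, and 2wr mice (2 arrays) had them and then regular diet for 2 weeks. The labels give neither strain nor age, and the 2wr group rests on 2 arrays. CPZ is a copper chelator that kills oligodendrocytes and strips myelin from the corpus callosum, and myelin is rebuilt once it is withdrawn. At most 287 mouse miRNAs were detected on an array, and the arrays lay on 2 slides, of 8 and 6 arrays, that each held all 4 groups. The 2dr group had 3 arrays on slide 1 and 1 on slide 2, whereas the other groups were split evenly.

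A miRNA is a short RNA that guides a silencing complex to messenger RNAs, chiefly through pairing of its seed, bases 2 to 8 from the 5′ end. miRNAs with the same seed are taken to share many targets, while the rest of the sequence sets them apart. The miR-181 family is known from lymphocyte development and is abundant in brain, where its members have been linked to inflammatory signalling in glia. The array names carry no arm, and they were matched to the 5p arms, for which all 4 had an entry in RefSeq. The mature sequences, with the seed in capitals, are shown because the 4 members differ only outside it:
mmu-miR-181a: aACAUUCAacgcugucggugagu
mmu-miR-181b: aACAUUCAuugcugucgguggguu
mmu-miR-181c: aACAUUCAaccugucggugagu
mmu-miR-181d: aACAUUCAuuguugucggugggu

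The seed ACAUUCA was the same in all 4, and among 1679 mature mouse miRNA names in the RefSeq table (GRCm38.p6) no other had it at bases 2 to 8. Outside the seed, miR-181c was miR-181a with the base at position 11 missing, a single edit. miR-181b differed from miR-181d by 2 edits, the substitution C12U (miR-181b base first, counted from the 5′ end) and a last base that miR-181d lacks. miR-181a differed from miR-181b by 4 edits, namely A9U, C10U and A21G (miR-181a base first) and a last base that only miR-181b has. By sequence the members thus formed the pairs a with c and b with d. By position they formed other pairs, since hairpins of miR-181a and miR-181b lie next to each other on chromosome 1 and again on chromosome 2, and the hairpins of miR-181c and miR-181d on chromosome 8. As miR-181a and miR-181b each come from 2 hairpins with the same mature sequence, the array cannot tell those hairpins apart. Whether probes of a member also bound the RNA of another was not tested.

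All 4 members were detected on all 14 arrays, each by 2 probes with 10 spots per probe, and none of their spots was saturated. Every spot of miR-181a and miR-181b was well above background. Of the spots of miR-181d, 51.4% for the first probe and 93.6% for the second were well above background, and the image software put its signal error at 7.98 to 26.5% of the signal, against 7.20 to 8.08% for miR-181b. The level of a miRNA is given below as log2 of its total signal, scaled to the 75th percentile of the array, so that a difference of 1 is 2-fold. Levels of different miRNAs come from different probes and were not set against each other.

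miR-181b was lower after 4 weeks of CPZ, and after 2 weeks of regular diet its mean over 2 arrays was near that of control. With 2 arrays and a wide interval, a return of miR-181b to the control level is not shown. Its control arrays were at -0.50, -0.88, -0.34 and -0.69, and its 4wd arrays at -1.42, -1.55, -1.20 and -1.30. All 4 of the 4wd arrays lay below the lowest control array. The group means were -0.60 ± 0.23 (SD, n = 4) in control and -1.37 ± 0.15 (SD, n = 4) in 4wd, a difference of -0.77 with a standard error (SE) of 0.28 and a 95% interval from -1.37 to -0.16, or 0.588 times the control level. This is below the 2-fold change that a call requires. The difference was -0.80 on slide 1 and -0.73 on slide 2. Over all 225 miRNAs tested, 2.67% had 4wd arrays that all lay below every control array, and miR-181b was the 16th from the lowest by its change. Since these values chose miR-181b, nothing is read from that count.

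At 2 days of regular diet the arrays of miR-181b were at -1.71, -1.50, -1.41 and -0.36. Replicates 1, 2 and 3 lay below every control array, whereas replicate 4 was within the control range. The mean was -1.24 ± 0.60 (SD, n = 4), -0.64 from control (95% interval -1.25 to -0.03). Without 2dr replicate 4 the difference was -0.94. After 2 weeks of regular diet the 2 arrays were at -0.93 and -0.31, on either side of the control range. Their mean of -0.62 ± 0.44 (SD, n = 2) differed from control by -0.02 (95% interval -0.76 to 0.73) and stood 0.75 above 4wd (95% interval 0.00 to 1.49). In order of level, control and 2wr came first and did not differ beyond their spread, and 2dr and 4wd came last and likewise overlapped.

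**Figure D1:**
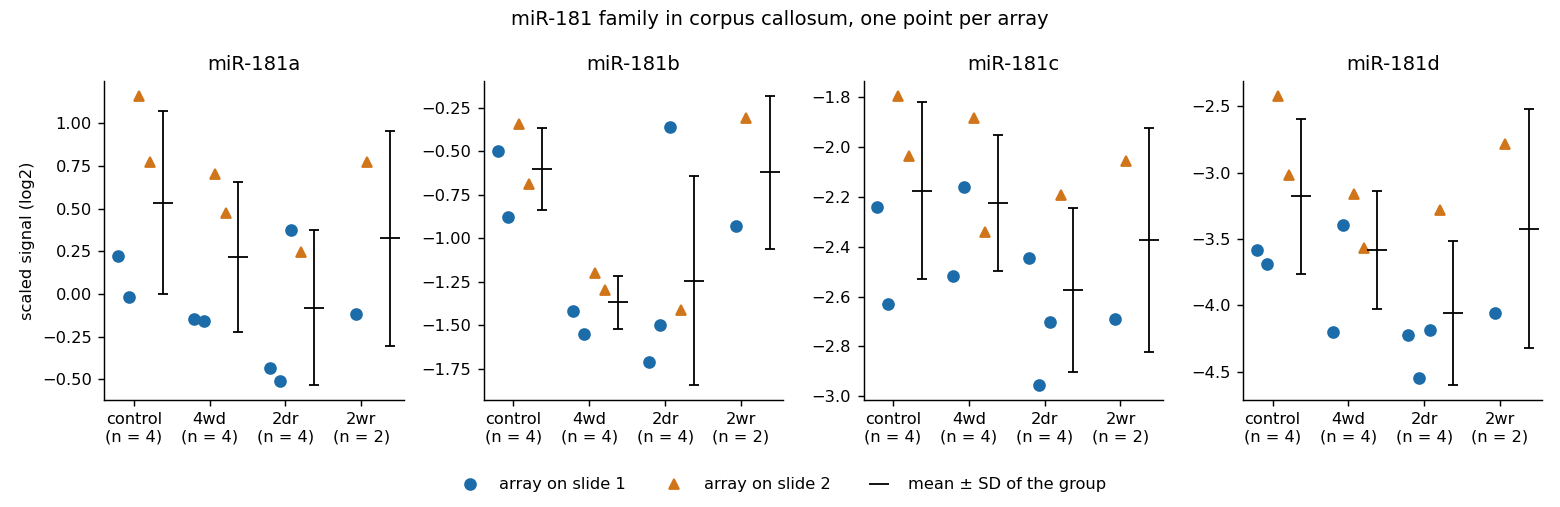
Scaled signal (log2) of the 4 members of the miR-181 family on each array, by group, with circles for slide 1, triangles for slide 2 and the group mean ± SD beside the points. The 4 arrays of miR-181b in 4wd, from -1.55 to -1.20, lie below its 4 control arrays, while the groups of the other members overlap and their slide 2 arrays mostly lie above those of slide 1.

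miR-181a, which shares both of its loci with miR-181b, had lower means in 4wd and 2dr, but neither difference passed the test. Its control arrays were at 0.22, -0.02, 1.16 and 0.78, and its 4wd arrays at -0.15, -0.16, 0.70 and 0.48. Its 2dr arrays were at -0.43, -0.51, 0.25 and 0.37, and its 2wr arrays at -0.12 and 0.77. Every group overlapped every other, and within each group the highest array was above the lowest by more than the difference of the means. The change was -0.32 in 4wd (SE 0.34, limma adjusted p = 0.814), -0.62 in 2dr (SE 0.34, limma adjusted p = 0.437) and -0.21 in 2wr (SE 0.42, limma adjusted p = 0.996). In order of level the means were 0.54 ± 0.53 in control, 0.33 ± 0.63 in 2wr, 0.22 ± 0.44 in 4wd and -0.08 ± 0.46 in 2dr (SD), with no neighbours apart by more than their spread.

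miR-181c was at about the same level in control and 4wd. Its control arrays were at -2.24, -2.63, -1.79 and -2.04, and its 4wd arrays at -2.52, -2.16, -1.88 and -2.34, all of the latter within the control range. Its 2dr arrays were at -2.44, -2.96, -2.19 and -2.70, of which 2 lay below every control array. Its 2wr arrays were at -2.69 and -2.06. The change was -0.05 in 4wd (95% interval -0.60 to 0.50, limma adjusted p = 0.981), -0.40 in 2dr (95% interval -0.94 to 0.15, limma adjusted p = 0.449) and -0.20 in 2wr (95% interval -0.87 to 0.47, limma adjusted p = 0.996). For 4wd the interval of these scaled values leaves out a 2-fold change in either direction. Without scaling the 4wd change of miR-181c was -1.02, where the median of all 225 miRNAs was -0.93. The means were -2.18 ± 0.35 in control, -2.22 ± 0.27 in 4wd, -2.37 ± 0.45 in 2wr and -2.57 ± 0.33 in 2dr (SD), and neighbours in this order overlapped.

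miR-181d, whose hairpin lies beside that of miR-181c, had its lowest mean in 2dr. Its control arrays were at -3.58, -3.69, -2.42 and -3.02, and its 4wd arrays at -4.20, -3.40, -3.16 and -3.57. Its 2dr arrays were at -4.22, -4.55, -3.29 and -4.19, and 3 of these 4 lay below every control array. Its 2wr arrays were at -4.06 and -2.79. The change was -0.40 in 4wd (SE 0.39, limma adjusted p = 0.802), -0.88 in 2dr (SE 0.39, limma adjusted p = 0.368) and -0.24 in 2wr (SE 0.47, limma adjusted p = 0.996). The 2dr difference had an unadjusted limma p of 0.0406 and an exact two-sided permutation p of 0.0857, so that it did not pass either after adjustment over 225 miRNAs or in the exact test. The means were -3.18 ± 0.59 in control, -3.42 ± 0.90 in 2wr, -3.58 ± 0.44 in 4wd and -4.06 ± 0.54 in 2dr (SD), and neighbours in this order overlapped.

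No member other than miR-181b had groups that were apart. Of miR-181a, miR-181c and miR-181d, 0 were called in any comparison at a limma adjusted p under 0.05 and at least 2-fold. Calls were rare over the whole array, at 0.444% of the 225 miRNAs for 4wd against control, 0.889% for 2dr against control and 0% for 2wr against control, 2dr against 4wd, 2wr against 4wd and 2wr against 2dr. For the comparisons with no call, limma gave 2, 41, 11 and 2 miRNAs at an unadjusted p under 0.05, in that order, and the methods' test, an analysis of variance with Tukey's comparisons, gave 0 calls in each. The calls were miR-155 in 4wd and 2dr and miR-146a in 2dr, all higher and both linked to immune activation, and the 4wd call was lost with a lower floor and without several single arrays. Groups that did not overlap, with the treated arrays lower, were found for 4% of miRNAs in 2dr and 3.56% in 2wr, and for none of the miR-181 members there. The 3 comparisons with control share the control arrays, so a high or low control array moves all of them together.

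**Figure D2:**
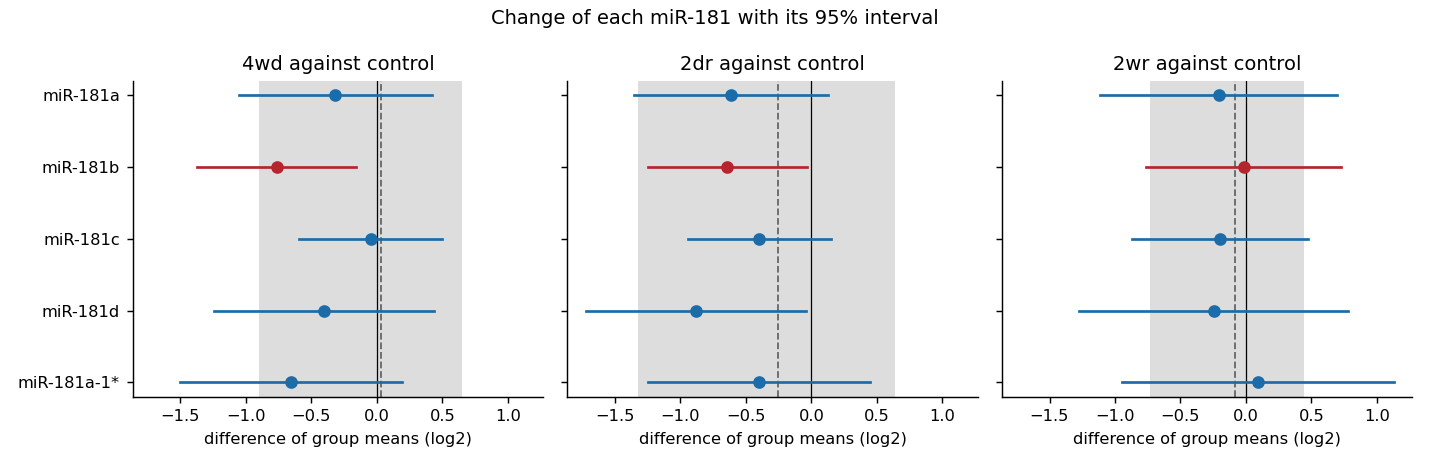
Difference of group means (log2) from control for the 4 members and for miR-181a-1*, with 95% intervals, in 4wd, 2dr and 2wr. The grey band holds the changes of all 225 tested miRNAs from the 5th to the 95th percentile and the dashed line is their median; all miR-181 points lie within the band, and miR-181b (red), at -0.77 in 4wd, is the lowest of the members there.

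The 4 members had changes below 0 in all comparisons with control, which has to be read against the rest of the array. In 4wd, 48% of the 225 miRNAs had a change below 0 and their median was 0.03, against a median of -0.36 over the 4 members. In 2dr, 71.6% were below 0, with a median of -0.25 over all miRNAs and -0.63 over the members. That median of all miRNAs in 2dr moved to 0.03 when the 75th percentile was taken over the 566 mouse miRNAs instead. Relative to the median of all miRNAs, the 2dr changes of miR-181a, miR-181b, miR-181c and miR-181d were -0.36, -0.39, -0.14 and -0.63. Both scalings must give these same values, since each divides all miRNAs of an array by the same number. With slide as a block the values were -0.19, -0.35, -0.04 and -0.43. With another background correction (normexp) they were -0.66, -0.55, -0.19 and -0.19. In 2wr, 60.9% were below 0, the medians were -0.08 over all and -0.20 over the members, and relative to the median of all miRNAs miR-181b stood at 0.06.

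Comparing members on the same array removes the scaling, since every member on an array is divided by the same number. The question here was whether the other 3 members followed miR-181b. Because miR-181b was selected on its change, the differences from it are descriptions with an interval and no test. miR-181c minus miR-181b was -1.75, -1.75, -1.45 and -1.35 on the control arrays and -1.10, -0.61, -0.68 and -1.04 on the 4wd arrays. All 4 of the 4wd arrays lay above every control array, and the difference rose by 0.72 (95% interval 0.01 to 1.42). In 2dr it was spread from -2.34 to -0.74, and in 2wr it was -1.76 and -1.75, 0.18 below control (95% interval for the change -1.04 to 0.68). Thus on the same arrays miR-181b was lower relative to miR-181c in 4wd than in control, and in 2wr it was not.

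miR-181a minus miR-181b was 0.72, 0.86, 1.51 and 1.46 on the control arrays and 1.27, 1.39, 1.90 and 1.78 on the 4wd arrays. The groups overlapped over both slides, but on each slide both 4wd arrays lay above both control arrays. The change was 0.45, with a 95% interval from -0.12 to 1.01 over all arrays and from 0.19 to 0.71 with slide as a block. In 2dr the change was 0.03 (95% interval -0.54 to 0.59), and in 2wr -0.19 (95% interval -0.88 to 0.50). From 4wd to 2wr it was -0.64 (95% interval -1.33 to 0.05, and -0.96 to -0.32 with slide as a block). With normexp background correction the 4wd change was -0.28 for miR-181a and -0.20 for miR-181b, so miR-181a did not fall less there. From 4wd to 2wr the changes were then 0.11 and 0.24. The normexp changes of miR-181c and miR-181d in 4wd, 0.63 and 0.83, still lay above that of miR-181b.

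miR-181d minus miR-181b changed by 0.36 in 4wd (95% interval -0.56 to 1.28), by -0.24 in 2dr (95% interval -1.16 to 0.68) and by -0.23 in 2wr (95% interval -1.35 to 0.90). On the control arrays it lay between -3.09 and -2.08 and on the 4wd arrays between -2.78 and -1.85, so the groups overlapped. The 4wd and 2dr intervals hold an equal change of miR-181b and miR-181d, and are wide. The change of miR-181d itself had 95% intervals of -1.24 to 0.44 in 4wd and -1.72 to -0.04 in 2dr, not adjusted for the number of miRNAs.

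**Figure D3:**
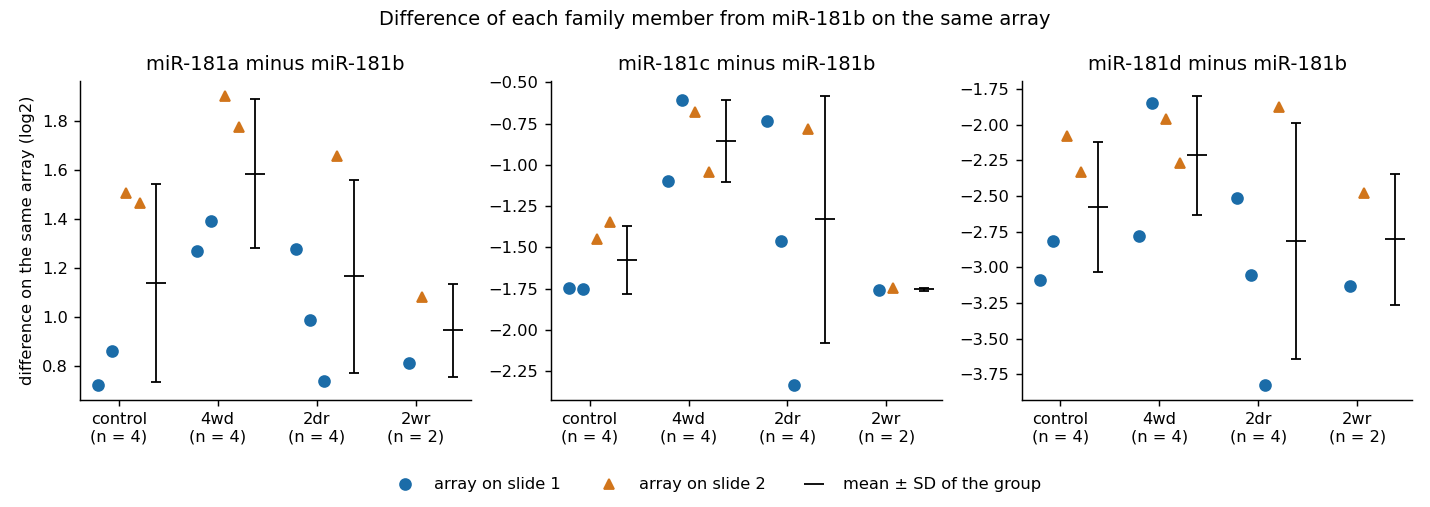
Difference (log2) of miR-181a, miR-181c and miR-181d from miR-181b on the same array, by group, with circles for slide 1, triangles for slide 2 and the group mean ± SD beside the points. For miR-181c the 4wd arrays, from -1.10 to -0.61, all lie above the control arrays, which end at -1.35.

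miR-181a, miR-181c and miR-181d were then set against each other in the same way, in 9 exact two-sided permutation tests. None reached a p under 0.05, and the values ran from 0.0571 to 0.933, where 0.0286 is the smallest that 4 arrays against 4 allow and 0.133 the smallest that 2 against 4 allow. The lowest belonged to miR-181c minus miR-181d in 2dr, which stood 0.49 above control (95% interval 0.03 to 0.95, exact permutation p = 0.0571), with 3 of 4 arrays above every control array. It fell short before any adjustment for the 9 tests. With slide as a block it stood 0.38 above control (95% interval 0.08 to 0.69, exact permutation within slides p = 0.0667, the smallest that these slides allow). In 4wd the same pair stood 0.35 above control, with a 95% interval from -0.11 to 0.81 over all arrays and from 0.05 to 0.66 with slide as a block (exact permutation p = 0.114 over all arrays and 0.111 within slides). In 4wd miR-181a minus miR-181c stood at -0.27 (exact permutation p = 0.229) and miR-181a minus miR-181d at 0.08 (exact permutation p = 0.714).

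miR-181a, miR-181c and miR-181d differed between the slides past the test, unlike between the groups. In a limma fit with group and slide, slide 2 was higher than slide 1 by 0.73 for miR-181a (adjusted p = 0.00692), by 0.45 for miR-181c (adjusted p = 0.0355) and by 0.85 for miR-181d (adjusted p = 0.00607). By that rule 18.2% of the 225 miRNAs were higher on slide 2. For miR-181b the difference was 0.17 (SE 0.21), given as a description without a test. Its selection by a group change may have favoured a small slide difference, since a slide difference widens the spread within groups. Whether the slide difference of miR-181b differed from that of the other members was not tested. Within slides, the 4wd change of miR-181a was -0.26 on slide 1 and -0.38 on slide 2, that of miR-181c 0.10 and -0.20, and that of miR-181d -0.16 and -0.64. The 2dr change was -0.29 and -0.72 for miR-181a, -0.26 and -0.28 for miR-181c and -0.68 and -0.56 for miR-181d. The 2dr group had 3 arrays on slide 1, where these members were lower, and 1 on slide 2, so its change without a block includes part of the slide difference. With slide as a block, the 2dr change was -0.43 for miR-181a (limma adjusted p = 0.316), -0.29 for miR-181c (adjusted p = 0.395) and -0.67 for miR-181d (adjusted p = 0.316).

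Correlations between members across arrays were taken within each slide, over 8 and 6 arrays, in 12 relations. miR-181a and miR-181b had a Pearson r of 0.91 (Spearman rho 0.93) on slide 1 and 0.84 (rho 0.83) on slide 2, and 0.91 and 0.76 without the 2 arrays farthest from the median of miR-181a. These carry no p because miR-181b was picked for its group differences, which are part of them. The adjusted p of the other pairs were taken over all 12 relations, those with miR-181b among them. That can make them lower than an adjustment without miR-181b, so no relation is read as passing from them. miR-181c and miR-181d had r = 0.80 on slide 1 (exact permutation p = 0.0167, adjusted over 12 relations 0.05; rho 0.62, exact p = 0.115, adjusted 0.197) and r = 0.82 on slide 2 (exact permutation p = 0.0528, adjusted 0.0952; rho 0.77, exact p = 0.103, adjusted 0.197). Without the 2 arrays farthest from the median of miR-181c, r dropped to 0.44 and 0.18. Leaving out these arrays also narrows the range of miR-181c, which can lower r. Whether the relation depended on them was not tested.

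The order of the relations differed between the slides: on slide 1 the pairs that share a locus had the highest r, whereas on slide 2 miR-181d with miR-181b or with miR-181a was higher. miR-181a and miR-181d had r = 0.42 on slide 1 (exact permutation p = 0.301, adjusted 0.401; rho 0.50, exact p = 0.216, adjusted 0.324) and r = 0.86 on slide 2 (exact permutation p = 0.0306, adjusted 0.0733; rho 0.89, exact p = 0.0333, adjusted 0.133), and without the 2 farthest arrays 0.58 and 0.94. miR-181a and miR-181c had r = 0.24 on slide 1 (exact permutation p = 0.565, adjusted 0.634; rho -0.02, exact p = 0.977, adjusted 0.977) and r = 0.81 on slide 2 (exact permutation p = 0.0556, adjusted 0.0952; rho 0.77, exact p = 0.103, adjusted 0.197), and without the 2 farthest arrays 0.18 and 0.79. miR-181b had r = -0.06 with miR-181c and 0.23 with miR-181d on slide 1, and 0.57 and 0.88 on slide 2 (rho -0.31, 0.31, 0.54 and 0.89; r without the 2 farthest arrays -0.34, 0.25, 0.41 and 0.71). Arrays of a slide share that slide and the scaling, and hold all 4 groups.

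The miRNAs outside the family most like each member were sought by Pearson r over the 14 arrays, after the mean of each slide was subtracted, among 166 candidates detected on all arrays. For miR-181b they were miR-27b (0.93), miR-23b (0.86) and miR-100 (0.84), and within the family its r was 0.88 with miR-181a, 0.50 with miR-181d and 0.16 with miR-181c. Among the 169 other miRNAs ranked, miR-181a came 2nd for miR-181b, whereas miR-181c came 44th. For miR-181a the most alike were miR-320 (0.84), miR-27b (0.79) and miR-151-5p (0.77). For miR-181c they were miR-185 (0.81), miR-124 (0.80) and miR-376b (0.79), and for miR-181d miR-26a (0.91), miR-361 (0.90) and miR-30d (0.85). miR-181c and miR-181d had an r of 0.80 with each other. These correlations describe the 14 arrays, which share their scaling, and were not tested.

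The separate probes of a member gave the same direction in each comparison with control. For miR-181b in 4wd the first probe alone gave -0.81 (95% interval -1.49 to -0.14) and the second -0.73 (95% interval -1.32 to -0.15). For miR-181d in 2dr the values were -1.29 and -0.76, and for miR-181a in 2dr -0.78 and -0.56. The wider interval in each of these pairs belonged to the first probe, which for miR-181d is the probe with fewer spots well above background.

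**Figure D4:**
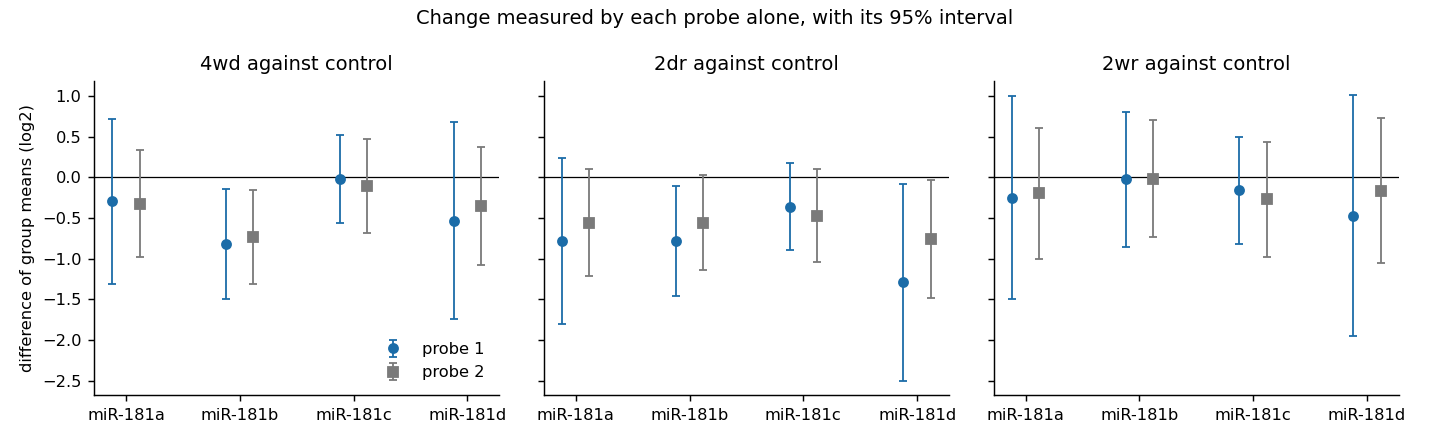
Difference of group means (log2) from control measured by the first (circles) and second (squares) probe of each member alone, with 95% intervals, in 4wd, 2dr and 2wr. For miR-181b in 4wd the probes give -0.81 and -0.73, and for miR-181d in 2dr -1.29 and -0.76.

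The other arm of the miR-181a-1 hairpin, named miR-181a-1* on the array, was dim. The software called it detected on all control and 2wr arrays and on 3 of 4 arrays each in 4wd and 2dr. Its sequence, with its bases 2 to 8 in capitals, is shown because it carries a different seed from the 5p arm of the same hairpin:
mmu-miR-181a-1*: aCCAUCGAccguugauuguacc

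Its control arrays were at -4.42, -5.08, -4.40 and -3.90, its 4wd arrays at -5.30, -6.07, -4.52 and -4.55, and its 2dr arrays at -4.96, -5.47, -4.47 and -4.51. The groups overlapped. The change was -0.66 in 4wd (SE 0.39, limma adjusted p = 0.553), -0.40 in 2dr (SE 0.39, limma adjusted p = 0.561) and 0.09 in 2wr (SE 0.48, limma adjusted p = 0.996). On slide 2 it was higher than on slide 1 by 0.80 (limma adjusted p = 0.0156). The matching arm of the miR-181a-2 hairpin, miR-181a-2*, was detected on 0 of 14 arrays.

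The changes of other families whose members differ by few bases are given beside these as a description. In 4wd the miR-181 members ran from -0.77 to -0.05, where the lowest is miR-181b, which was chosen for that change, and the other 3 from -0.40 to -0.05. The changes of 9 let-7 and miR-98 members ran from 0.13 to 0.63, those of 5 miR-30 members from -0.43 to 0.02 and those of 3 miR-29 members from 0.12 to 0.44. In 2dr the miR-181 members ran from -0.88 to -0.40 and the miR-30 members from -1.003 to -0.29, and all members of both families were below 0, whereas all 9 let-7 and miR-98 members were above 0. The 3 miR-29 members ran from -0.06 to 0.22 in 2dr, on both sides of 0. Slide differences were of like sign within each of these families. They ran from 0.17 to 0.85 in the miR-181 family and from 0.19 to 2.33 in the miR-30 family. In the let-7 and miR-98 family they ran from -0.57 to -0.36, and in the miR-29 family from -0.52 to -0.16.

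**Figure D5:**
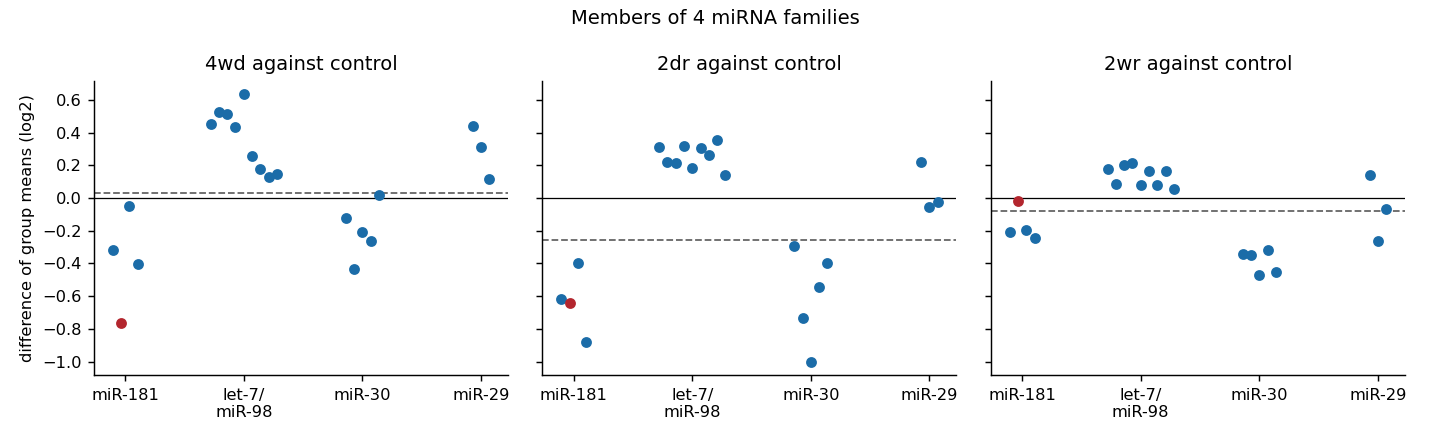
Difference of group means (log2) from control for each member of the miR-181, let-7 and miR-98, miR-30 and miR-29 families in 4wd, 2dr and 2wr, with miR-181b in red and the median of all 225 tested miRNAs dashed. In 4wd the miR-181 members run from -0.77 to -0.05 and the let-7 and miR-98 members from 0.13 to 0.63.

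Cell types of the tissue were followed through miRNAs known to mark them. Of 4 oligodendrocyte miRNAs, none passed the test against control; miR-338-3p was at 1.72 in control and 0.55 in 4wd (limma adjusted p = 0.402) and miR-219 at 0.32 and -0.51 (limma adjusted p = 0.601). miR-338-5p was at -5.23 and -7.72 (limma adjusted p = 0.402, detected on 4 and 2 arrays), while miR-138 was at -0.90 and -0.60 (limma adjusted p = 0.876), with the higher mean in 4wd. The summed level of the oligodendrocyte list ranged from 1.49 to 3.49 in control, 0.98 to 1.83 in 4wd, 1.14 to 2.81 in 2dr and 1.91 to 1.99 in 2wr, with the lowest range in 4wd and an overlap of 4wd with control. Of 7 neuron miRNAs, all detected on every array and led by miR-124 and miR-128, none passed, and the summed level was 4.42 to 4.79 in control and 3.70 to 5.27 in 4wd. Of 5 myeloid cell miRNAs, miR-155 passed in 4wd and 2dr and miR-146a in 2dr, and the summed level was -3.58 to -2.85 in control, -2.49 to -1.51 in 4wd, -1.71 to 0.55 in 2dr and -2.16 to -0.54 in 2wr. miR-155 was detected on 0 of 4 control arrays and 1 of 4 in 4wd, so its change rests on signals below detection. miR-142-5p was detected on 1 array in all and was not tested. miR-223 of the same list had a lower mean in 4wd, by a log2 change of -0.91 (limma adjusted p = 0.553), with detection on 4 of 4 control and 0 of 4 4wd arrays, and a change of 0.03 in 2dr. miR-142-3p had changes of 1.69 in 4wd (limma adjusted p = 0.428) and 2.69 in 2dr (limma adjusted p = 0.201).

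None passed of the 2 lymphocyte miRNAs, the 2 tested of 3 red blood cell miRNAs and the 1 tested of 2 vessel miRNAs. The summed levels of these lists overlapped between control and every other group. miR-144, detected on no array, and miR-126-5p were not tested. The part of these cell types in the miR-181 values was not tested. In bulk tissue, fewer cells of a type that holds miR-181b and less miR-181b per cell cannot be told apart.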

How the data were processed

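The members and the lists of other miRNAs were chosen with earlier results of these data known. The authors deposited scanner files that hold linear signal intensity, per spot and summed per miRNA, made with Agilent Feature Extraction 10.5.1.1 per the file headers (the methods name a later version); it subtracted background, summed probes and called detection. A deposited series table holds the authors' log2 values, scaled per array, and served only as an alternative. Control spots and 10 viral miRNAs were left out. From the total signals, each array was divided by its 75th percentile over the 170 miRNAs detected on all arrays, a floor of 0.00176 (-9.15 as log2) was set, and log2 was taken. The 225 miRNAs that all arrays of some group detected were fitted with limma 3.58.1 in R 4.3.3 over the 4 groups, with Benjamini-Hochberg adjustment, and a call needed an adjusted p under 0.05 and 2-fold. Differences between members on an array were fitted by group in Python 3.11.15, with 95% intervals from t quantiles, and exact tests enumerated all regroupings. Both steps were tested on simulated data. The number of arrays limits the precision.

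Named are the 4 members, the other arms of their hairpins, the cell type lists, 3 other families, the 3 miRNAs most like each member, and the miRNAs called. Mature sequences are RefSeq's (GRCm38.p6); the array was designed on another build, so coordinates were left out. Groups share replicate numbers. Of 18 same-numbered pairs of arrays, 13 deviated together (correlation over 0.1), the lowest correlation being -0.61, and pairing was not assumed. Replicates 1 and 2 lay on slide 1 and replicates 3 and 4 on slide 2, save 2dr replicate 4 and 2wr replicate 2. Pairing and slide therefore cannot be told apart for most of these pairs. No 2 arrays were closer than a median difference of 0.22 (log2). Alternatives were another summary of spots, background correction, scalings, filters, a lower floor, slide or replicate number as a block, only the groups compared, the methods' test, the deposited log2 values, no minimum fold, each probe alone and each array left out.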

Additional observations from a re-analysis of the deposited data

How the results depend on the processing

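The lower level of miR-181b in 4wd kept its sign under all 29 alternatives (-1.74 to -0.20), as it did in 2dr (-1.04 to -0.36). Many of these cannot move a difference of group means, such as other filters, another test or leaving out arrays of other groups. As miR-181b was also chosen by its change, the count is a description. With normexp background correction the change of miR-181b was -0.20 in 4wd and 0.24 from 4wd to 2wr, and without scaling -1.74 and 1.30. Without scaling the median of all 225 miRNAs was itself -0.93 and 0.44. Relative to that median miR-181b stood at -0.81 and 0.86, against -0.80 and 0.86 in the main fit. The 2dr changes of miR-181a, miR-181c and miR-181d also kept their sign. In all, 36 of 568 values of single miRNAs turned their sign, mostly small ones of 2wr. The replicate block turned the 2wr change against control to 0.19 for miR-181a, 0.17 for miR-181b and 0.089 for miR-181d, and the change from 4wd to 2wr to 0.019 for miR-181c. That block changed no call. It sets 2wr replicate 2, on slide 2, beside replicate 2 of the other groups, all on slide 1. The slide difference thus enters its 2wr values. miR-181b in 2wr against control was 0.16 when scaled over all mouse miRNAs, 0.12 with the authors' values and 0.034 with normexp, and miR-181c from 4wd to 2wr was 0.068 when scaled over all mouse miRNAs, 0.072 with the authors' values and 0.41 without scaling.

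Normexp moved the median of all 225 miRNAs in 4wd to 0.82 and gave 83 calls there, against 1. It gave 0.63 for miR-181c, 0.83 for miR-181d and 1.05 for miR-181a-1* in 4wd, 0.22 for miR-181a-1* in 2dr, 0.028 for miR-181c and 0.15 for miR-181d in 2wr, and -0.67 for miR-181d and -0.79 for miR-181a-1* from 4wd to 2wr. Only there did miR-181a-1* in 4wd pass the call rule (limma adjusted p = 0.0406, range over its alternatives 0.0406 to 1). On the same array it gave -1.11, -0.47 and -0.33 for miR-181a minus miR-181d and -0.19, -0.0037 and -0.13 for miR-181c minus miR-181d (4wd, 2dr, 2wr), and -0.92 for miR-181a minus miR-181c in 4wd, then past the exact test. The cause of these normexp shifts was not tested. Without scaling, miR-181a-1* in 2wr was at -0.33, where the median of all 225 miRNAs was -0.49. Relative to that median it stood at 0.17, as in the main fit.

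Leaving out each array in turn (tested miRNAs and scaling kept) gave -0.20 to 0.079 for miR-181c in 4wd. Against control, 2wr ran from -0.65 to 0.24 for miR-181a, -0.33 to 0.29 for miR-181b, -0.51 to 0.12 for miR-181c, -0.88 to 0.39 for miR-181d and -0.36 to 0.54 for miR-181a-1*. From 4wd to 2wr it ran from -0.34 to 0.55 for miR-181a, -0.47 to 0.17 for miR-181c and -0.48 to 0.79 for miR-181d. In 2wr, miR-181a minus miR-181c ran from -0.14 to 0.12, miR-181a minus miR-181d from -0.16 to 0.23 and miR-181c minus miR-181d from -0.27 to 0.37. Where 1 2wr array was left, it was taken to vary like the other groups.

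Calls in 4wd were 0 with the lower floor, quantile normalization, unscaled signals, the methods' test, all 566 miRNAs or the 170 detected throughout, and 0 to 1 without an array, 0 without control replicates 1, 2 or 3, 4wd replicates 1, 2 or 3, or 2dr replicates 1, 2 or 3. Calls in 2dr were 0 with normexp, no scaling and the methods' test, 1 with all 566 miRNAs or the 170 detected throughout, and 1 to 2 without an array, 1 without control replicate 2 or 4. Calls in 2wr were 1 when scaled over all mouse miRNAs, with slide as a block and with the authors' values, and 0 to 1 without an array, 1 without control replicate 4 or 2wr replicate 1.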
